A study of Mus musculus with 8 samples.

Results

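The 10 genes *Pf4*, *Itga2b*, *Vwf*, *Gp1bb*, *Gp5*, *Gp6*, *Gp9*, *Ppbp*, *Selp* and *Treml1*, which encode surface receptors and granule proteins of megakaryocytes and platelets, were followed in long-term hematopoietic stem cells (LT-HSCs) of the E14.5 mouse fetal liver (FL), to ask whether these cells carried a platelet program and whether it moved with the loss of IκBα. The genes were chosen by name, and all 10 of 10 were found among the 55487 gene identifiers of the count table. IκBα, encoded by *Nfkbia*, is the inhibitor that holds NF-κB in the cytoplasm. Bulk RNA-seq was done on LT-HSCs sorted as LSK CD48-CD150+ cells, 500 per sample, from E14.5 embryos of the germline targeted *Nfkbia* knockout line, with 3 WT, 3 HET and 2 KO samples described as independent biological replicates. No treatment is given in the labels, the matings used IκBα HET mice and in part the *Gfi1:tomato* reporter, and the labels do not say which embryos carried the reporter. The labels give WT1, WT2 and HET1 as male with total RNA as the starting molecule, and the other 5 samples (KO1, KO2, HET2, HET3 and WT3) as female with polyA RNA, so sex and labelled molecule cannot be told apart. The KO group was limited to these 2 female samples, because the study set another KO sample aside for its sequencing quality.

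Megakaryocytes are large polyploid cells that shed platelets, and they descend from HSCs, in part through a short route that stays close to the stem cell. Some HSCs already transcribe megakaryocyte genes, and in the adult bone marrow expression of *Vwf* marks HSCs that favour platelet output. *Itga2b*, whose product is CD41, is also an early surface marker of embryonic blood progenitors, so its RNA in a fetal HSC does not by itself mark a platelet lineage cell.

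The transcription factors GATA1 and the ETS factor FLI1 are the classical regulators of this gene group, so the promoters, 250 bases before to 50 after the annotated start, were searched on both strands for GATA words (the word AGATAA, the word AGATAG, the word TGATAA and the word TGATAG) and ETS words (the word CCGGAA and the word CAGGAA). Promoters of 9 of the 10 genes were found in the RefSeq table of GRCm38.p6. A GATA word lay in 4 of 9 (*Gp1bb*, *Gp5*, *Gp6* and *Pf4*), against 29.8% of 32851 mouse promoters of this length, and an ETS word in 4 of 9 (*Itga2b*, *Pf4*, *Ppbp* and *Treml1*), against 41.4%. *Pf4* was the 1 gene of 9 with both, which 11.4% of all promoters had. The 4 promoters below are those of the 2 neighbouring chemokine genes whose levels parted between samples, of the receptor gene with 3 GATA words and of the integrin gene. Capitals mark the matches, in 5′ to 3′ direction of the gene, and a word on the other strand appears as its reverse complement.
Pf4 promoter (chr5:90772185-90772484, plus strand): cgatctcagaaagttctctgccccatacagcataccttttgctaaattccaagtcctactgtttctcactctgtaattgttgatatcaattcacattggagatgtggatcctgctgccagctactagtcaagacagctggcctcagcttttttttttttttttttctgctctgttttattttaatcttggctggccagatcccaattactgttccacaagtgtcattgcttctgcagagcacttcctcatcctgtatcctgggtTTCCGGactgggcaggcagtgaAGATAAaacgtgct
Ppbp promoter (chr5:90768268-90768567, plus strand): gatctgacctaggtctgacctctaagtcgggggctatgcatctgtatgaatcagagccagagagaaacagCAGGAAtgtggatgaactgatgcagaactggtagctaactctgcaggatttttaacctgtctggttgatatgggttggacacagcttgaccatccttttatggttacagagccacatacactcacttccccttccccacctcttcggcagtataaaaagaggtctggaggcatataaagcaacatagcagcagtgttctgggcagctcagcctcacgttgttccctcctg
Gp5 promoter (chr16:30310732-30311031, minus strand): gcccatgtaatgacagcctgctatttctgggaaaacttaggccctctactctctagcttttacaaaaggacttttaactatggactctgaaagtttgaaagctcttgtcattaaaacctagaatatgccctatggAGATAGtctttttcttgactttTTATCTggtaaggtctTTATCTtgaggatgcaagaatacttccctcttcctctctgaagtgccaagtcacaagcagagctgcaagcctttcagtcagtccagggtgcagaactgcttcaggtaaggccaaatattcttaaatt
Itga2b promoter (chr11:102469834-102470133, minus strand): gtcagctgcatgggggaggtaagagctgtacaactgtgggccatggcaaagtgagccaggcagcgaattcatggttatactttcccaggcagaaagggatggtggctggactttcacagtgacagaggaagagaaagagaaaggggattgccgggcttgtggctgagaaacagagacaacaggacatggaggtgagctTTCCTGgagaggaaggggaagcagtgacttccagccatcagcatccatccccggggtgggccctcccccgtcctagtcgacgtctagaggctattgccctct
In *Pf4* the capitals are an ETS word 14 bases and a GATA word 36 bases after the start. *Gp5* held its GATA words 115, 93 and 77 bases before the start, *Itga2b* its ETS word 52 bases and *Ppbp* its ETS word 180 bases before it. These distances are from the RefSeq start. For *Itga2b* the gene position given below (chr11:102453297-102470122, minus strand) holds nearly all of the printed promoter. Few bases before that outer start were therefore searched. A match describes the letters and not an occupied site.

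The counted reads of a sample numbered 17895973 to 21720972, and levels are given as CPM, counts scaled to a total of 1000000 with library sizes adjusted by the trimmed mean of M-values (TMM). A count of 3 reads, taken as the floor, was 0.125 to 0.178 CPM. *Nfkbia* had 243 to 1621 reads in the 6 WT and HET samples and 1 and 0 reads in KO1 and KO2, as labelled. The LT-HSC label was checked with 8 marker genes, and WT3 and HET3 stood apart. The summed level of the markers was 1426 CPM in WT1, 1561 CPM in WT2, 1328 CPM in KO1 and 939 CPM in KO2, and it was 582 CPM in HET1, 492 CPM in HET2, 257 CPM in WT3 and 197 CPM in HET3. HET3 had 0 reads of *Ly6a*, which encodes the SCA1 of the sort gate, and WT3 was next lowest, with 96 reads. *Kit*, also of the gate, was not low there. It was at 148 CPM in WT3 and 170 CPM in HET3, against 135 CPM in HET1 to 231 CPM in KO1. *Cd48*, which the gate excludes, was at 45.8 CPM in WT3 and 51.2 CPM in HET3, against 46.2 CPM in HET2 to 89.1 CPM in HET1. WT3 and HET3 held the most RNA of the erythroid factor *Klf1* (1040 CPM in WT3 and 1227 CPM in HET3) and of the hepatocyte gene *Alb* (380 CPM in WT3 and 136 CPM in HET3). The fits of the platelet genes are therefore also given without WT3 and HET3, an alternative chosen after seeing the data. Results of the marker lists, the other megakaryocyte genes, the permutation tests and the correlations are given only with them. In bulk samples, fewer cells of a type and less RNA per cell cannot be told apart.

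**Figure D1:**
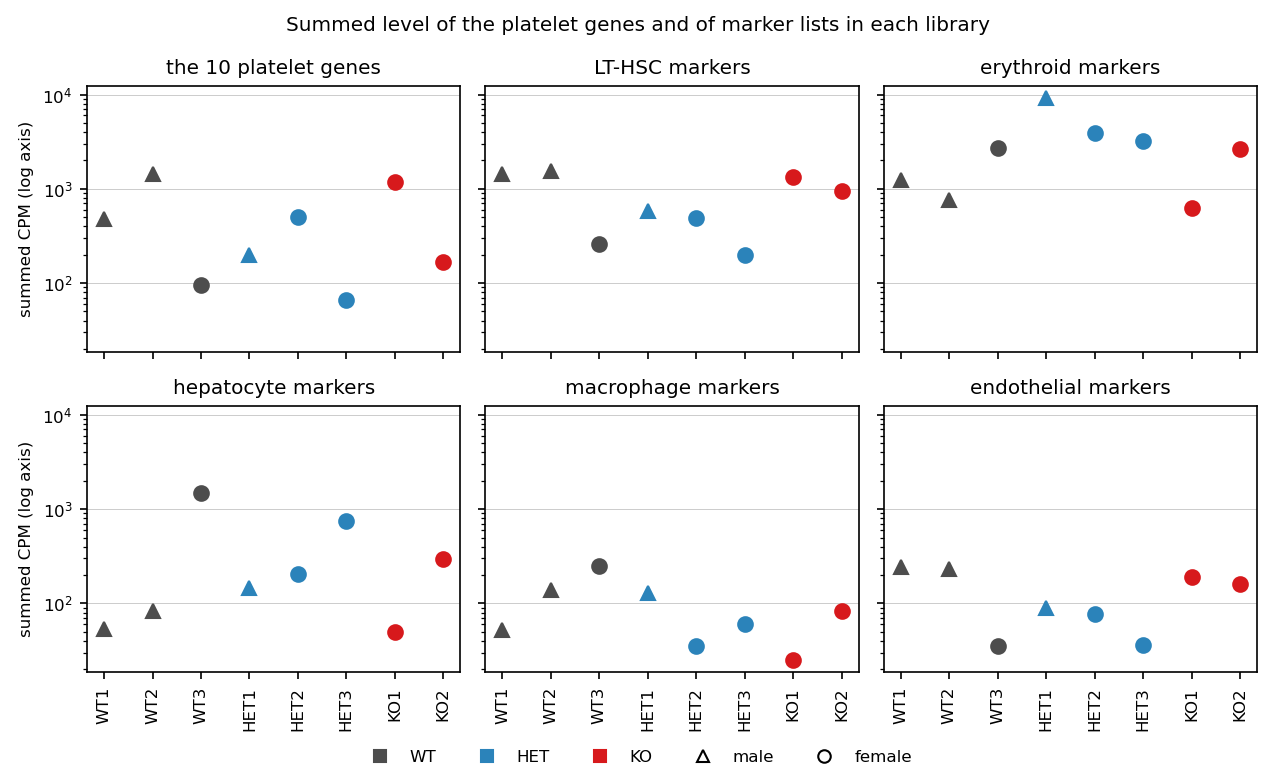
Summed CPM of the 10 platelet genes and of 5 marker lists in each library, on a log axis, coloured by genotype, with triangles for male and circles for female samples. WT3 and HET3 had the lowest sums of both the platelet genes (95.7 and 66.7 CPM) and the LT-HSC markers (257 and 197 CPM).

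Platelet gene RNA was present in all 8 samples, and the ranges of the 3 genotypes overlapped. The 10 genes together took 0.00571% of the counted reads in HET3 and 0.167% in WT2. Their summed level was 477, 1436 and 95.7 CPM in WT1, WT2 and WT3, 197, 498 and 66.7 CPM in HET1, HET2 and HET3, and 1193 and 167 CPM in KO1 and KO2. The highest sample of every one of the 10 genes was WT2 or KO1, which was the case for 28.7% of the 20610 genes tested. HET3 was the lowest sample for 5 genes (*Gp9*, *Pf4*, *Ppbp*, *Vwf* and *Selp*), and for 19.5% of all genes. By level per kb of exon, averaged over the 8 samples, the order was *Pf4* (446 CPM per kb), *Gp9* (47.9), *Ppbp* (34.5), *Treml1* (18.1), *Gp5* (12.7), *Itga2b* (4.77), *Vwf* (1.95), *Selp* (0.781), *Gp1bb* (0.277) and *Gp6* (0.10 CPM per kb). Each gene's range over the 8 samples overlapped that of its neighbours in this order. Within libraries, *Pf4* exceeded *Gp9*, *Gp5* exceeded *Itga2b* and *Vwf* exceeded *Selp* in 8 of 8, whereas *Ppbp* exceeded *Treml1* in 4 of 8 and *Treml1* exceeded *Gp5* in 5 of 8, so the order of these 3 is within their spread. *Pf4* alone supplied 8.62% of the reads of the 10 genes in HET3 and 74.0% in HET2.

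**Figure D2:**
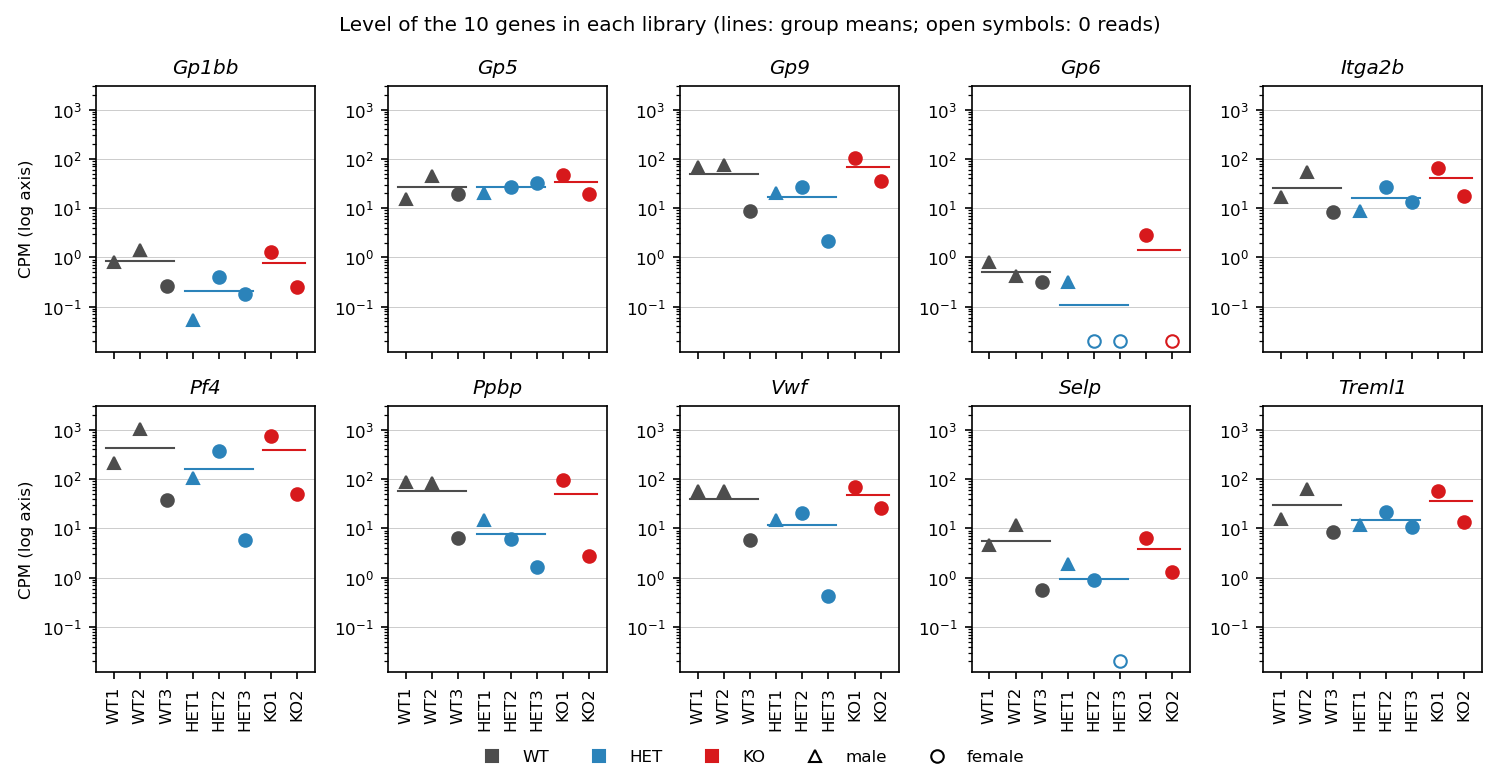
CPM of each of the 10 genes in each library, on a log axis, with lines at the group means. Open symbols at the lower edge stand for 0 reads. WT2 or KO1 is the highest point in each panel, and KO1 lies above KO2 in all 10.

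The GPIb-IX-V complex is the platelet receptor for von Willebrand factor, and *Gp1bb*, *Gp5* and *Gp9* encode 3 of its chains. *Gp9* (chr6:87778072-87779768, plus strand) was at 68.3, 73.7 and 8.59 CPM in WT1, WT2 and WT3, at 19.8, 27.3 and 2.19 CPM in HET1, HET2 and HET3, and at 102 and 36.0 CPM in KO1 and KO2. KO1 was the highest sample, and KO2 lay above all HET samples but below WT1 and WT2. *Gp5* (chr16:30307685-30310779, minus strand) was the steadiest of the 10, with 15.1, 44.7 and 19.0 CPM in the WT samples, 19.8, 26.7 and 32.2 CPM in the HET samples, and 46.7 and 19.7 CPM in the KO samples. Its spread over the 8 samples stood at percentile 45.8 of all genes tested, and HET3, the lowest sample for *Gp9*, was high here. *Gp1bb* (chr16:18620317-18622403, minus strand) had few reads, 17, 34 and 5 in the WT samples, 1, 8 and 3 in the HET samples, and 26 and 5 in the KO samples. Of its exon bases, 92.9% are shared with *Sept5* and *Gm49601* on the same strand, where reads cannot be assigned to 1 gene, so its counts are uncertain and its low level is no measure of its RNA.

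GPVI, encoded by *Gp6* (chr7:4363965-4397744, minus strand), is the platelet receptor for collagen, and its RNA was near the floor. There were 17, 10 and 6 reads in the WT samples, 6, 0 and 0 in the HET samples, and 59 and 0 in KO1 and KO2. KO1 thus held the most reads and KO2 none, and 0 reads allow a level of up to 0.148 CPM in KO2. *Itga2b* (chr11:102453297-102470122, minus strand) encodes the αIIb chain of the fibrinogen receptor. It was at 16.6, 53.0 and 8.38 CPM in WT1, WT2 and WT3, at 8.72, 26.3 and 13.5 CPM in HET1, HET2 and HET3, and at 64.2 and 17.5 CPM in KO1 and KO2. WT2 and KO1 were again the 2 high samples, and the lowest values of WT and HET were alike.

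Among genes of granule and secreted proteins, *Pf4*, *Ppbp*, *Vwf* and *Selp* had wide ranges and *Treml1* a narrow one. *Pf4* (chr5:90772435-90773383, plus strand) encodes platelet factor 4, a chemokine of the alpha granule that restrains HSC cycling when released in the marrow. It was at 213, 1046 and 38.0 CPM in WT1, WT2 and WT3, at 105, 369 and 5.75 CPM in HET1, HET2 and HET3, and at 745 and 50.1 CPM in KO1 and KO2. The groups overlapped completely, each with 1 high sample, and the spread of *Pf4* stood at percentile 99.0 of all genes. *Ppbp* (chr5:90768518-90770063, plus strand) encodes the neighbouring chemokine, pro-platelet basic protein, and ends 2371 bases before *Pf4* begins. It was at 86.2, 83.7 and 6.25 CPM in the WT samples, at 15.1, 6.15 and 1.66 CPM in the HET samples, and at 97.1 and 2.75 CPM in the KO samples. Here WT1 matched WT2, and HET2, second among the WT and HET samples for *Pf4*, was low. Per kb of exon, *Pf4* was 3.72 times *Ppbp* in WT1, 18.8 times in WT2, 11.5 times in KO1, 27.3 times in KO2 and 89.9 times in HET2, so the 2 neighbours did not keep 1 ratio.

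*Vwf* (chr6:125546774-125686679, plus strand) encodes von Willebrand factor, which tethers platelets to the vessel wall and is made by megakaryocytes and endothelium. It was at 56.5, 56.8 and 5.83 CPM in WT1, WT2 and WT3, at 15.0, 20.5 and 0.415 CPM in HET1, HET2 and HET3, and at 69.7 and 26.1 CPM in KO1 and KO2. WT1, WT2 and KO1 formed the high samples, and HET3 was more than 10 times lower than any other. Endothelial marker sums were 35.6 to 243 CPM in WT, 36.6 to 89.3 CPM in HET and 159 to 189 CPM in KO. The single markers did not move as 1, with 6 positive and 2 negative log2 fold changes in KO against WT and HET. Unlike *Vwf*, *Plvap* was highest in HET3 (31.0 CPM) and *Stab2* in WT3 (4.01 CPM). Like *Vwf*, *Tie1* (0.119 CPM), *Pecam1* (2.43 CPM), *Sox18* (1.25 CPM), *Cdh5* (0.119 CPM) and *Kdr* had HET3 as their lowest sample. Of these 8 markers 3 were higher in KO than in WT and HET at an unadjusted p under 0.05, against 15.7% of all genes, *Lyve1* had 0 reads in WT3 and *Kdr* 0 reads in HET3, and their part in the result was not tested. *Selp* (chr1:164115264-164150026, plus strand), the gene of P-selectin, which activated platelets and endothelium expose, was at 4.54, 11.9 and 0.573 CPM in the WT samples, at 1.91, 0.908 and 0 CPM in the HET samples, and at 6.46 and 1.28 CPM in the KO samples. Antisense genes share 14.1% of its exon bases. *Treml1* (chr17:48359916-48367176, plus strand) encodes TLT-1, a receptor stored in alpha granules, and was at 15.2, 64.2 and 8.49 CPM in the WT samples, at 11.5, 21.2 and 10.8 CPM in the HET samples, and at 58.0 and 13.2 CPM in the KO samples. As for *Itga2b*, WT2 and KO1 were its 2 highest samples.

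The samples of 1 genotype and sex were then set side by side, since WT1 and WT2, and KO1 and KO2, share every label. On the log2 scale with a prior count of 2 reads, all 8 LT-HSC markers lay within 2-fold in both pairs. The platelet genes did not. KO1 exceeded KO2 by over 2-fold in 10 of 10 genes, against 15.4% of all genes tested, with a median log2 difference of 2.06. *Ppbp* differed 35.3-fold and *Pf4* 14.9-fold, and *Gp5* the least with 2.37-fold. WT2 exceeded WT1 by over 2-fold in 5 of 10 genes, against 10.1% of all genes. These 5 were *Pf4* (4.91-fold), *Treml1* (4.22-fold), *Itga2b* (3.19-fold), *Gp5* (2.96-fold) and *Selp* (2.62-fold). By contrast, *Vwf* (1.0-fold), *Gp9* (1.08-fold) and *Ppbp* (0.972-fold) had the same level in WT1 and WT2. Each pair is 1 library against 1, so these ratios have no test. Marker lists of other cells also differed within the pairs. Erythroid, hepatocyte and macrophage sums were higher in KO2 than in KO1 (2638 against 622 CPM, 299 against 49.8 CPM and 84.0 against 25.0 CPM), the neutrophil and myeloid sum was higher in KO1 (513 against 148 CPM), and macrophage markers were higher in WT2 than in WT1 (140 against 52.0 CPM). Their part in the platelet gene differences was not tested.

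**Figure D3:**
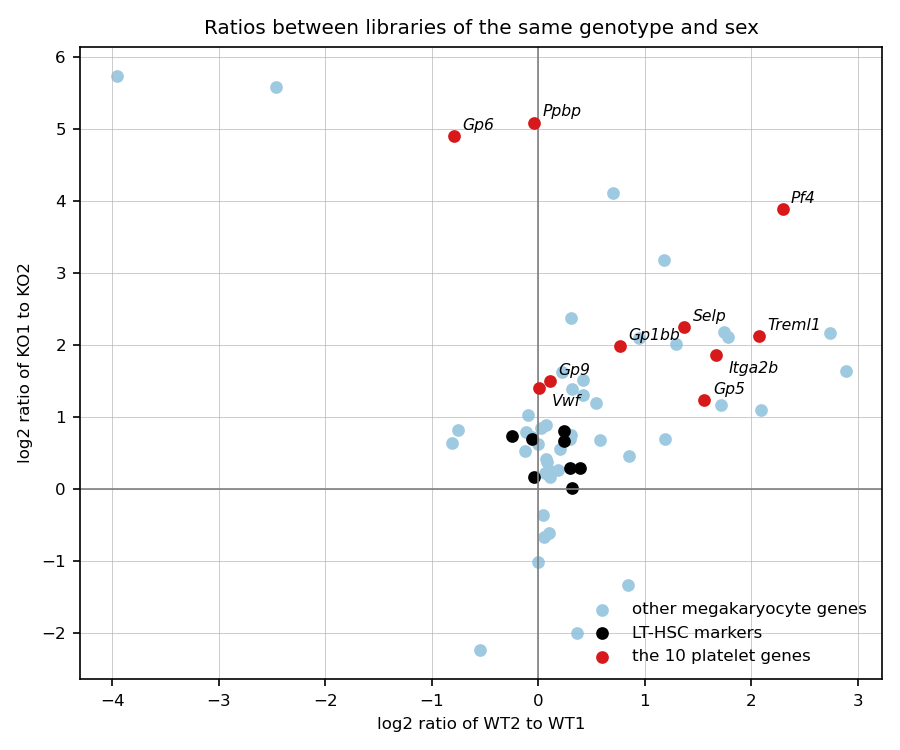
Log2 ratio of WT2 to WT1 against log2 ratio of KO1 to KO2 for the 10 platelet genes, 47 other megakaryocyte genes and 8 LT-HSC markers. All 10 platelet genes lie above 1 on the vertical axis, 5 lie beyond 1 on the horizontal axis, and the LT-HSC markers stay within 1 of 0 on both.

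Set against the LT-HSC markers of the same library, most platelet genes spread less but still differed between samples of 1 genotype. The highest sample exceeded the lowest 182-fold in CPM and 25.6-fold on this scale for *Pf4*, 168-fold and 24.9-fold for *Vwf*, and 46.5-fold and 6.89-fold for *Gp9*, whereas for *Gp5* the ratio rose from 3.10-fold to 15.5-fold. *Pf4* was at 150, 670 and 148 CPM per 1000 CPM of marker RNA in WT1, WT2 and WT3, at 180, 749 and 29.2 in HET1, HET2 and HET3, and at 560 and 53.3 in KO1 and KO2. On this scale each genotype again had 1 high and at least 1 low sample. *Vwf* was at 39.6, 36.4 and 22.7 in the WT samples, 25.8, 41.6 and 2.11 in the HET samples, and 52.5 and 27.8 in the KO samples, so that in the 7 samples other than HET3 *Vwf* spanned 22.7 to 52.5 where *Pf4* spanned 53.3 to 749. *Gp9* showed a like picture, from 33.4 to 76.8 in the 7 samples other than HET3. *Gp5* went the other way, from 10.6 in WT1 to 164 in HET3, the library with the least marker RNA.

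KO samples were compared with the pooled WT and HET samples, the comparison of the study, to ask whether the loss of IκBα changed the platelet genes. No platelet gene differed past the threshold. The test was the quasi-likelihood test of edgeR with sex in the model, and a call needed an adjusted p under 0.05 with a log2 fold change beyond 1 in either direction. As both KO samples are female, the fitted KO difference is from the 3 female references WT3, HET2 and HET3. The male samples set only the sex term. Of the 10 genes 0 were called, as of all genes (0%). The deleted gene *Nfkbia* was not called either (log2 fold change -9.50, adjusted p = 0.0862). The lack of a call therefore cannot show that a gene was unchanged. All 10 fitted log2 fold changes were positive, with a median of 1.98 against 0.13 over all genes. *Ppbp* (3.41 ± 1.24 SE, adjusted p = 0.161), *Selp* (2.94 ± 1.25, adjusted p = 0.190) and *Gp9* (2.44 ± 0.93, adjusted p = 0.167) had an unadjusted p under 0.05. This was 3 of 10 higher, against 15.7% of all genes, and 0 of 10 lower, against 9.48% of all genes. For the others the log2 fold change was 0.36 ± 0.52 for *Gp5*, 1.34 ± 0.81 for *Itga2b*, 1.40 ± 0.83 for *Treml1*, 1.41 ± 1.21 for *Gp1bb*, 1.53 ± 1.59 for *Pf4*, 2.42 ± 1.13 for *Vwf* and 3.70 ± 1.90 for *Gp6*, with adjusted p from 0.216 to 0.688. DESeq2 with apeglm shrinkage called *Gp9* alone (log2 fold change 1.60, adjusted p = 0.0444), 1 of 10 where 6.50% of all genes were called higher and 0.597% lower.

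The fitted values rested on the sex term and on KO1. In 0 of 10 genes did KO1 and KO2 both exceed the 6 WT and HET samples, against 3.05% of all genes, and above the 3 female WT and HET samples for 3 of 10 (*Gp9*, *Vwf* and *Selp*), against 27.1% of all genes. Two-sided exact permutation tests on log2 CPM, gene by gene, gave p from 0.286 for *Gp9* and *Itga2b* to 0.893 for *Ppbp*, where 0.0357 is the smallest p that 2 against 6 samples allow. Without the sex term the log2 fold changes were 0.22 to 2.20, and 0 of 10 genes had an unadjusted p under 0.05. Without KO1, 6 of 10 genes changed sign, among them *Pf4* (-1.46) and *Ppbp* (-0.77), while *Gp9* (1.501), *Vwf* (1.55) and *Selp* (1.35) stayed positive. Without WT3 and HET3, HET2 is the only female reference left, so the fitted KO difference is from this 1 library. The log2 fold change was then 0.08 for *Pf4*, 1.20 for *Vwf* and 1.31 for *Gp9*. The LT-HSC markers moved in the same direction in this comparison, with 8 of 8 higher at an unadjusted p under 0.05 and a median log2 fold change of 2.65, and their sum was 257 to 1561 CPM in WT, 197 to 582 CPM in HET and 939 to 1328 CPM in KO. Hepatocyte marker sums were 52.9 to 1483 CPM in WT, 145 to 753 CPM in HET and 49.8 to 299 CPM in KO. All 8 had a negative log2 fold change, with a median of -2.62, and 0 of 8 had an unadjusted p under 0.05. Of 9 erythroid markers 7 were negative, with a median of -1.26, and 0 had an unadjusted p under 0.05. Their part in the differences of the platelet genes was not tested.

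**Figure D4:**
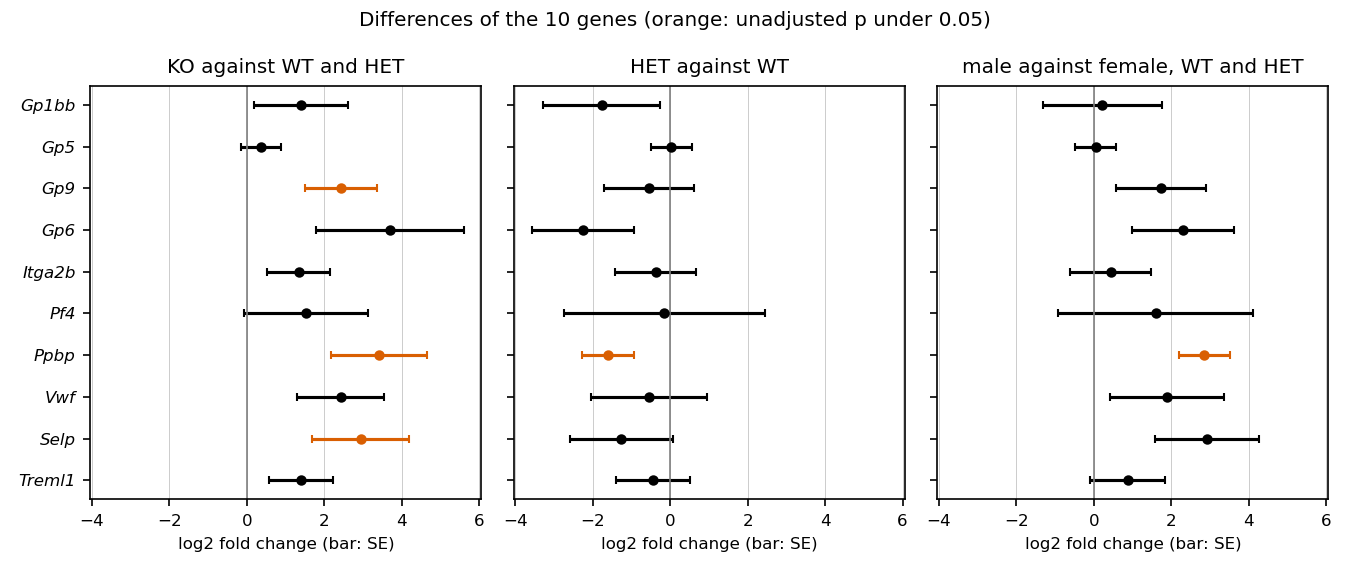
Log2 fold changes of the 10 genes in 3 comparisons, with bars of 1 SE and orange points where the unadjusted p was under 0.05. All points of the KO comparison lie right of 0, and none was called after adjustment.

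HET and WT samples, which differ by 1 copy of *Nfkbia*, were compared in a fit of their 6 libraries that included sex. The platelet genes did not differ past the threshold, with 0 of 10 called, as of all genes (0%). Log2 fold changes ran from -2.26 for *Gp6* to 0.02 for *Gp5*, with a median of -0.55 against 0.00 for all genes, and 9 of 10 were negative. *Ppbp* (-1.61 ± 0.66 SE, adjusted p = 0.932) was the 1 gene of 10 with an unadjusted p under 0.05, against 1.82% of all genes lower, and 0 of 10 were higher, against 1.80%. The exact two-sided permutation p was 0.2 to 0.8, where 3 against 3 samples allow no less than 0.1. In all 3 same-numbered pairs of WT and HET, 7 of 10 genes were lower in HET (*Gp1bb*, *Gp9*, *Gp6*, *Pf4*, *Ppbp*, *Vwf* and *Selp*), against 21.4% of all genes. The labels tie these numbers to no litter or day, and WT2 and HET2 differ in sex. With the replicate number as a block, 0 of 10 genes were called and 4 of 10 had an unadjusted p under 0.05. Without WT3 and HET3, 6 of 10 genes were called lower in HET, against 6.32% of all genes. They were *Pf4* (-2.59), *Ppbp* (-2.50), *Selp* (-2.10), *Itga2b* (-1.997), *Vwf* (-1.92) and *Gp9* (-1.84). With sex in the model that fit compares HET1 with WT1 and WT2 and leaves 1 residual degree of freedom, and HET1 is also the sample with the highest erythroid marker sum (9166 CPM against 622 to 3881 CPM in the other 7).

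Sex and labelled molecule form the remaining contrast among WT and HET samples, 3 male total RNA against 3 female polyA RNA samples. The study's methods describe 1 RNA protocol for all samples, so whether the molecule label marks a difference in preparation is not known. Here 0 of 10 platelet genes were called, against 0.0146% of all genes, all 10 log2 fold changes were positive, and their median was 1.66 against 0.16 for all genes. *Ppbp* (2.85 ± 0.67 SE, adjusted p = 0.176) alone had an unadjusted p under 0.05, 1 of 10 against 10.7% of all genes higher, and 0 of 10 were lower, against 12.0%. All 3 male samples exceeded all 3 female samples in 3 of 10 genes (*Gp6*, *Ppbp* and *Selp*), against 21.1% of all genes. WT3 and HET3 are 2 of the 3 female samples. Without them, and with genotype in the model, the contrast sets HET1 against HET2, 1 library against 1. The log2 fold change of *Ppbp* was then 1.29, and 7 of 10 genes changed sign, such as *Pf4* (-1.82).

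The wider megakaryocyte program was read from 47 further genes in 4 lists. In KO against WT and HET, edgeR called 0 of 47. DESeq2 with apeglm called 8 of 47 higher and 1 lower, against 6.50% and 0.597% of all genes. At an unadjusted p under 0.05 in edgeR, 20 were higher and 2 lower, where 15.7% of all genes were higher and 9.48% lower. The median log2 fold change was 1.53. The shares at an unadjusted p apply to the counts of each list below. Among 16 surface receptors 6 were higher and 0 lower. *F2r*, the thrombin receptor PAR1, had both KO samples (97.1 and 125 CPM) above all other samples (62.6 to 84.1 CPM). This was the case for 3.05% of all genes. The log2 fold change of *F2r* was 0.63 ± 0.17 SE (adjusted p = 0.148). *Cd9* (11.2 to 211 CPM) and *Fcer1g* (12.3 to 77.3 CPM), a tetraspanin and the signalling partner of GPVI, both had HET3 as their lowest sample.

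Among 11 granule and secreted genes 4 were higher and 0 lower in KO at an unadjusted p under 0.05. *Mmrn1*, the factor V binding protein multimerin, was at 257, 241 and 11.2 CPM in the WT samples, 77.6, 55.6 and 0.949 CPM in the HET samples, and 245 and 120 CPM in the KO samples, with WT1 and WT2 alike, as for *Vwf*. *Srgn*, the granule proteoglycan serglycin, ran from 204 to 805 CPM and *Clu*, clusterin, from 3.62 to 93.8 CPM. *Tgfb1* stayed between 138 and 205 CPM in all 8 samples. Of 8 cytoskeletal and signalling genes 3 were higher and 0 lower. *Fermt3*, the kindlin that activates platelet integrins, varied little (355 to 582 CPM), while *Bin2* (48.2 to 393 CPM), *Rasgrp2* (25.7 to 117 CPM) and *Rab27b* (6.17 to 139 CPM), which acts in granule secretion, had their lowest value in HET3.

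The 12 transcription factors split. At an unadjusted p under 0.05, 7 were higher in KO and 2, *Gfi1b* (log2 fold change -1.49) and *Tal1* (-0.77), were lower, none of them called. *Gata1*, the shared regulator of megakaryocytes and erythroid cells, was at 51.7, 66.5 and 402 CPM in the WT samples, 248, 336 and 427 CPM in the HET samples, and 56.1 and 225 CPM in the KO samples. It was thus lowest in WT1, WT2 and KO1 and highest in HET3, the sample with the least platelet gene RNA. *Gfi1b* was likewise lowest in these 3 samples and highest in HET3, with 98.2, 98.0 and 499 CPM in WT, 324, 369 and 573 CPM in HET, and 113 and 229 CPM in KO. *Nfe2*, which drives late platelet formation, ran from 212 CPM in HET3 to 548 CPM in WT1, and *Lmo2* from 614 to 898 CPM. In HET against WT, 0 of 47 genes were called and 0 had an unadjusted p under 0.05. Between male and female samples 0 of 47 were called, with 8 higher and 4 lower (*Gata1*, *Zfpm1*, *Gfi1b* and *Tal1*) at an unadjusted p under 0.05, against 10.7% and 12.0% of all genes.

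**Figure D5:**
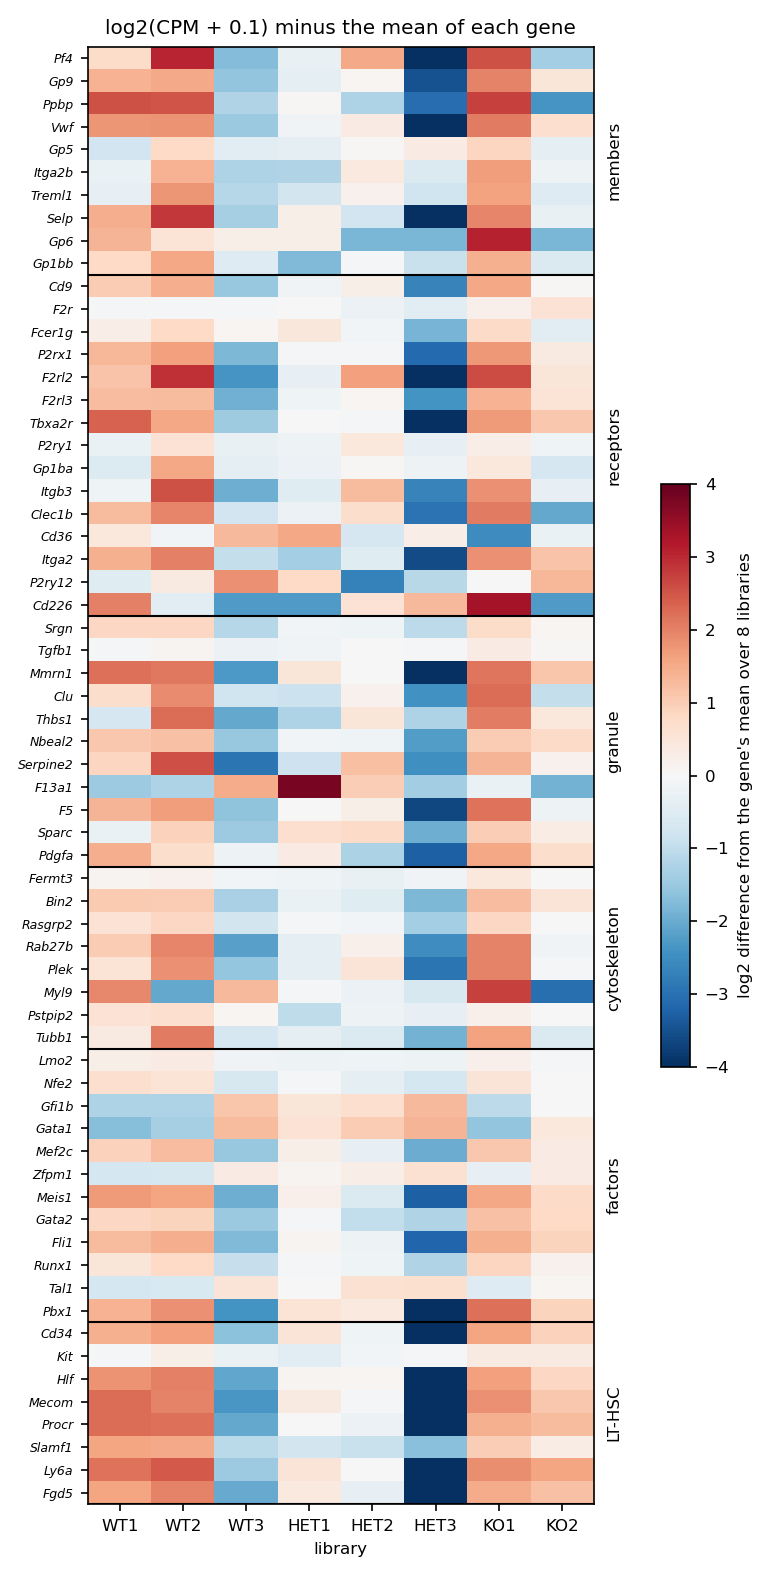
Difference of log2(CPM + 0.1) from the mean of each gene over the 8 libraries, for the 10 platelet genes, 46 other megakaryocyte genes in 4 lists and 8 LT-HSC markers, with colours capped at 4. Most platelet genes and LT-HSC markers are low in WT3 and HET3, where *Gata1* and *Gfi1b* are high.

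Within the same genotype and sex, the wider program followed the platelet genes in part. KO1 exceeded KO2 by over 2-fold in 19 of 47 genes and WT2 exceeded WT1 in 9 of 47, against 15.4% and 10.1% of all genes. The 12 transcription factors contributed 1 gene in the first pair and 0 in the second. *Itgb3*, which encodes the β3 partner of *Itga2b*, was 6.80-fold higher in WT2 than in WT1, *Thbs1* 7.48-fold and *Gp1ba* 4.29-fold, whereas *Mmrn1* (0.937-fold) and *Srgn* (0.996-fold) were level. *Itgb3*, *Thbs1* and *Gp1ba* were picked out after their values were seen.

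The genes whose pattern was most like that of *Pf4*, by Pearson correlation of log2 CPM over the 8 samples among 10098 genes with a mean of at least 5 CPM, were *Mrvi1* (r = 0.98), *Agbl3* (0.97), *Zswim7* (0.97), *Plek* (0.97) and *Zc3h7b* (0.96). *Mrvi1*, which encodes a partner of cGMP-dependent protein kinase found in platelets, was at 5.52, 19.3 and 1.82 CPM in the WT samples, 2.23, 5.10 and 0.237 CPM in the HET samples, and 21.4 and 1.28 CPM in the KO samples. *Plek*, the gene of the platelet protein kinase C substrate pleckstrin, ran from 4.45 CPM in HET3 to 135 CPM in KO1. *Agbl3*, *Zswim7* and *Zc3h7b* had narrower ranges, of 3.26 to 9.59, 17.2 to 26.5 and 2.73 to 9.44 CPM. A correlation above 0.9 with *Pf4* was reached by 1.04% of these genes, and all points share the same 8 libraries, with WT3 and HET3 among them. Over the 45 pairs of the 10 platelet genes themselves, the median correlation was 0.71, from 0.07 to 0.99.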

How the data were processed

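Bulk RNA-seq of 8 samples of LT-HSCs was used. The authors trimmed reads with Trim Galore 0.6.6, aligned them with STAR 2.7.8 to GRCm38, kept uniquely mapped reads and deposited raw counts per Ensembl gene, without normalization. The strand column counted is not given in the sources used here, so antisense and overlapping genes are uncertain. The authors also deposited log2 values, variance-stabilized with DESeq2 1.38.3 and corrected for sex, which served for 1 alternative. The CUT&Tag and single-cell data of the study were not used here.

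Groups, sex and replicate numbers were taken from the sample labels. Symbols and 1-based positions come from GENCODE M21 (GRCm38), which matched 55227 of 55487 identifiers. Genes with at least 10 reads over the 8 samples were tested, which left 20610, all 10 members included. Counts were scaled by TMM and tested with glmQLFTest after the legacy form of glmQLFit (edgeR 4.0.16, R 4.3.3), with Benjamini-Hochberg adjustment over all genes tested. Log2 CPM used a prior count of 2. DESeq2 1.42.0 with apeglm 1.24.0 and limma 3.58.1 were alternatives. The test script was tested on simulated data. The genes and lists were chosen with earlier results of these data known. The genes named are every member, the 4 genes of highest mean CPM and any called gene of each other megakaryocyte list, the 5 genes most like the most abundant member, and *Nfkbia*, with 1 gene not reported here. *Tal1*, *Zfpm1*, *Itgb3*, *Thbs1*, *Gp1ba* and the single markers of other lists were named after their values were seen. All KO, HET and WT contrasts share samples. P-values measure the spread between these samples. A floor of 3 reads covers counting error only, and at 17895973 to 21720972 reads per sample it limits *Gp6* and *Gp1bb*.

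Replicate numbers in the labels were checked for pairing. The deviations from the group means correlated at 0.29, 0.20 and 0.59 for WT and HET samples of the same number. Samples of different numbers were not correlated, so these values cannot show a pairing, and no litter or day is stated. The main fit of HET against WT left the numbers out. They served only for the count over same-numbered samples and as a block in an alternative. With KO samples the correlations were 0.28, 0.24, -0.35 and -0.12. No 2 samples of the same genotype were alike within sampling noise.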

Additional observations from a re-analysis of the deposited data

How the results depend on the processing

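Of the member log2 fold changes recomputed under the alternatives, 195 of 206 kept their direction and side of the threshold in KO against WT and HET, 110 of 136 in HET against WT, and 107 of 136 between male and female samples. The others were 6, 16 and 19 that changed sign and 5, 10 and 10 that passed the threshold. In KO against WT and HET, 0 genes were called by edgeR (5196 had an unadjusted p under 0.05), against 1825 by DESeq2, 1463 by DESeq2 with apeglm, 1106 without the filter on low counts, 662 with WT alone as reference, 719 by limma on the authors' sex-corrected values, and 0 to 730 when 1 replicate was left out (730 without HET2, 8 without HET1). Of the members, DESeq2, apeglm and limma called 1, *Gp9*, and the fit without the filter 2, *Gp9* and *Ppbp*. In HET against WT, where 747 genes had an unadjusted p under 0.05, DESeq2 called 64 genes, no filter 128 with 1 member (*Ppbp*), leaving out 1 replicate 0 to 135 with 0 to 3 members (*Gp9*, *Ppbp* and *Vwf*, without HET2), and leaving out WT3 and HET3 1967 with 6 members. Between male and female samples 3 genes were called, against 1838 by DESeq2 with 1 member, 2121 without the filter with 4 members, 0 with at least 10 reads in every sample, 46 without WT3 and HET3, and 1 to 2999 without 1 replicate, with 0 to 5 members, the most without HET2. The causes were not tested.

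Leaving out 1 replicate moved the log2 fold change in KO from -0.19 to 2.15 for *Gp1bb*, -0.40 to 0.85 for *Gp5*, -4.16 to 7.87 for *Gp6*, -1.46 to 4.19 for *Pf4*, -0.77 to 4.37 for *Ppbp* and -0.036 to 2.10 for *Treml1*, the lowest each without KO1. In HET against WT it moved from -0.59 to 0.63 for *Gp5*, -1.996 to 1.25 for *Itga2b*, -2.64 to 2.30 for *Pf4*, -1.79 to 0.91 for *Treml1*, -4.23 to 0.16 for *Gp1bb*, -1.89 to 0.78 for *Gp9* and -2.42 to 0.84 for *Vwf*. *Gp5* was also -0.094 by library size, -0.018 with at least 10 reads in every sample and -0.59 without WT3 and HET3. Between male and female samples it moved from -2.33 to 2.01 for *Gp1bb*, -0.57 to 0.60 for *Gp5*, -1.19 to 2.00 for *Itga2b*, -0.84 to 4.10 for *Pf4* and -0.48 to 2.17 for *Treml1*. Without WT3 and HET3 this contrast sets HET1 against HET2, 1 library against 1. The log2 fold changes were then -2.79 for *Gp1bb*, -0.43 for *Gp5*, -1.59 for *Itga2b*, -1.82 for *Pf4* and -0.89 for *Treml1*, with -0.46 for *Gp9* and -0.45 for *Vwf*.

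With the replicate number as a block, 0 genes were called in KO against WT and HET, 0 in HET against WT and 0 between male and female samples, and the sex difference changed sign for *Gp1bb* (-0.24), *Gp9* (-0.43), *Pf4* (-0.32) and *Vwf* (-1.13). The block changed no other call. A lone sample left in a group was assumed to vary like the others. With 2 KO samples, depth limits *Gp6* and *Gp1bb*, at a few reads, and the spread between samples limits the rest.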
